A study of Mus musculus with 34 samples.

Results

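The 39 genes described here are the mouse Hox genes of the 4 clusters, Hoxa (11 genes, chromosome 6), Hoxb (10 genes, chromosome 11), Hoxc (9 genes, chromosome 15) and Hoxd (9 genes, chromosome 2). They were taken by name from the GENCODE M21 annotation of mm10 and are 39 of its 21938 protein-coding genes. The readout was CUT&RUN for H3K4me3, trimethylation of lysine 4 of histone H3, in which an antibody-directed nuclease releases DNA fragments from chromatin that carries the mark. The cells came from the villi of the small intestine of 2 wild-type and 2 ApcMin/+ mice, all C57BL/6J and 5 weeks old by the labels (the study's methods give another age). ApcMin/+ mice carry 1 mutant allele of the tumour suppressor Apc in every cell. The villi were scraped from intestine of normal appearance, so a library holds the nuclei of every cell type that came away with them. The other libraries of the 34-sample series were not analysed here.

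Hox genes encode homeodomain transcription factors that set identity along the head-to-tail axis. Within a cluster they lie in the order in which they act along the body, from the low-numbered anterior genes to the high-numbered posterior genes, and genes of the same number in different clusters are paralogues. H3K4me3 marks the starts of active genes and of many CpG-rich genes that are held ready or silent, and Hox clusters can carry it together with the Polycomb mark H3K27me3 in cells that do not transcribe them.

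The 4 libraries differed in depth and in enrichment. Wild-type 1 held 1430000 tags, wild-type 2 4790000, ApcMin/+ 1 3700000 and ApcMin/+ 2 5470000, as stated in the track headers. Signal is the coverage that the authors scaled to 10000000 tags per library, and the value of a promoter is its mean signal within 1000 bp of the annotated gene start. The share of all signal inside enriched regions was 22.6% for wild-type 1, 11.9% for wild-type 2, 43.3% for ApcMin/+ 1 and 16.4% for ApcMin/+ 2. ApcMin/+ 1 therefore stands apart, and every genotype difference below rests on a pair of ApcMin/+ libraries of unlike enrichment. Background, the mean signal away from enriched regions and gene starts, was 0.283, 0.324, 0.200 and 0.302 in the order wild-type 1, wild-type 2, ApcMin/+ 1 and ApcMin/+ 2, and the values of each promoter below follow the same order.

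H3K4me3 was low at all 39 Hox promoters. Their mean signal over the 4 libraries ran from 0.185 at Hoxb3 to 1.60 at Hoxa4 with a median of 0.630, against a median of 1.31 over all protein-coding promoters. None of the 39 reached a mean signal of 2, the level set for testing, which 9930 of the 21938 promoters (45.3%) reached. Hoxa4 alone lay above the median promoter, and 34.6% of all promoters lay below the median Hox promoter. The median Hox promoter was 2.47, 1.29, 2.03 and 2.58 times the background of its library, whereas the median of the promoters above 2 was 16.0, 9.45, 65.9 and 13.8 times background. A bulk track cannot tell a mark on few cells from a weak mark on all of them.

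The promoters on which the description turns differ widely in sequence, so the 250 bases before the start of 4 of them are shown here from the GRCm38 (mm10) assembly, 5′ to 3′ on the strand of the gene. Capitals mark CpG dinucleotides. Hoxa4 (chr6:52191754-52192003, minus strand) has 41 of them, Hoxa5 (chr6:52204588-52204837, minus strand) 28, Hoxb4 (chr11:96318017-96318266, plus strand) 14 and Hoxb8 (chr11:96281655-96281904, plus strand) 12. None of the 4 stretches overlaps an annotated untranslated exon. The first 3 belong to the promoters with the strongest signal in ApcMin/+ 1, and Hoxb8, the neighbour of Hoxb7, is among the weakest.
Hoxa4: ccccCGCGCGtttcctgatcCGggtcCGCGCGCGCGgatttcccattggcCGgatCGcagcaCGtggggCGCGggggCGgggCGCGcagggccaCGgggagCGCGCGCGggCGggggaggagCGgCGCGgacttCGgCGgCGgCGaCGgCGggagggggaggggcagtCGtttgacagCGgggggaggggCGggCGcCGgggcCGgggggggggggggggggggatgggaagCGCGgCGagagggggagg
Hoxa5: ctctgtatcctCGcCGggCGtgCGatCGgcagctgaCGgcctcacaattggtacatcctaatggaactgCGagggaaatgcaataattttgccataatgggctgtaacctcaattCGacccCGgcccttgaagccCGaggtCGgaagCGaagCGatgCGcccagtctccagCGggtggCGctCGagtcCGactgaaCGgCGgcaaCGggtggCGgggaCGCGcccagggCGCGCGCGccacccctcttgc
Hoxb4: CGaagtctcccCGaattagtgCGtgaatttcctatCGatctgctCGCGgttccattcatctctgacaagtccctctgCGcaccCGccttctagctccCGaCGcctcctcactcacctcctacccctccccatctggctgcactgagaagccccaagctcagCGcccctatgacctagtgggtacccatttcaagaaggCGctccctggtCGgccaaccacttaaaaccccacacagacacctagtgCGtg
Hoxb8: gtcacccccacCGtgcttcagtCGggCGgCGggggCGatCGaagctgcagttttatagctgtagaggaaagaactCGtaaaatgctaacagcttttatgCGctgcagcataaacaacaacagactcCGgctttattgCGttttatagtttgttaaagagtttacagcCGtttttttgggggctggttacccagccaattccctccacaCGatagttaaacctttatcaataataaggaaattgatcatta

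In the Hoxa cluster, Hoxa4, a gene of cervical and thoracic patterning, had the highest promoter (52189671 to 52191753 on chromosome 6, minus strand). It had a signal of 1.05, 0.774, 3.79 and 0.803. Only ApcMin/+ 1 stood above the rest, and the genotypes overlapped. In fragments this was 3 (95% exact Poisson interval 0.619 to 8.77), 7 (2.81 to 14.4), 28 (18.6 to 40.5) and 9 (4.12 to 17.1), where background would give 0.809, 3.10, 1.48 and 3.30 per window. These intervals cover counting error only. Hoxa2, which patterns the second pharyngeal arch, was the lowest of the cluster at 0, 0.653, 0.135 and 0.685.

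In the Hoxb cluster, Hoxb7 (96286623 to 96290162 on chromosome 11, plus strand) was highest, at 1.05, 0.418, 2.31 and 0.914, again with ApcMin/+ 1 above the other 3 libraries and the genotypes overlapping. Hoxb3 (96323326 to 96347930) was the lowest of all 39 at 0, 0, 0.406 and 0.332. No fragment lay in its window in either wild-type library and 3 and 4 fragments lay in the ApcMin/+ libraries. The annotated start of Hoxb3 lies 20443 bp from the RefSeq start that is closest to its coding sequence, and around the RefSeq start the mean signal was 0.710.

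In the Hoxc cluster, Hoxc10, a gene of lumbar patterning (102966796 to 102971893 on chromosome 15, plus strand), was highest at 1.39, 0.418, 0.135 and 1.31. Here ApcMin/+ 1, the most enriched library, was the lowest of the 4. The annotated start of Hoxc5 lies 647 bp from that of Hoxc10, so both windows share fragments, and RefSeq places the start of Hoxc5 46565 bp away. Hoxc13, known for its role in hair, was the lowest of this cluster at 0, 0.627, 0.135 and 0.383.

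In the Hoxd cluster, Hoxd12, a limb and digit gene (74675013 to 74677705 on chromosome 2, plus strand), was highest at 2.09, 0.332, 0.405 and 1.1. Its rank came from wild-type 1, the shallowest library, in which it held 6 fragments (2.20 to 13.1). Hoxd11, which acts in the forearm and kidney, was lowest at 0.580, 0.265, 0.242 and 0.548. Over the clusters, the mean signal of the promoters was 0.827 ± 0.172 for Hoxa, 0.669 ± 0.193 for Hoxb, 0.553 ± 0.223 for Hoxc and 0.655 ± 0.208 for Hoxd (SD over libraries, n = 4), so the clusters differed by about as much as the libraries did.

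**Figure D1:**
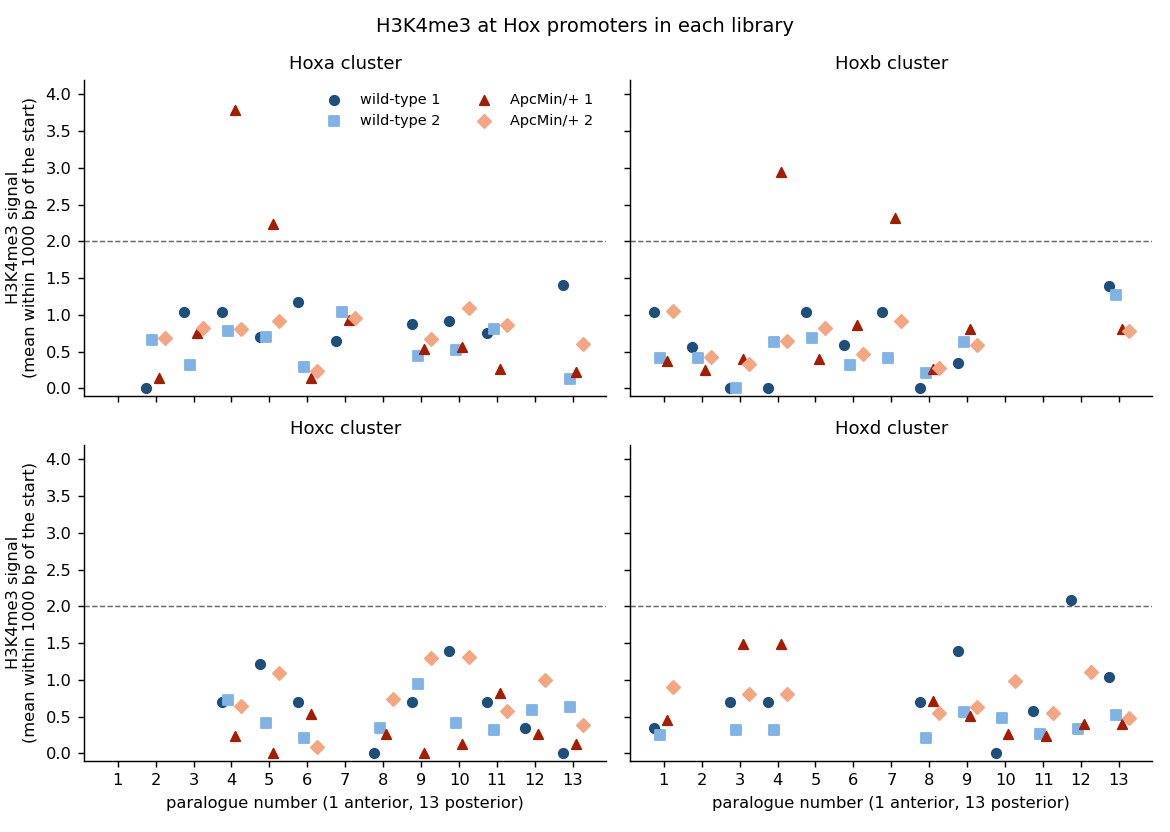
Each point is the mean H3K4me3 signal (tracks scaled to 10000000 tags) within 1000 bp of the start of 1 Hox gene in 1 library, by cluster and paralogue number (1 of the 39 is not drawn), and the dashed line is the signal of 2 set for testing. The points above the line are Hoxa4, Hoxa5, Hoxb4 and Hoxb7 in ApcMin/+ 1 and Hoxd12 in wild-type 1.

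The number of Hox promoters above background differed between libraries. The lower end of the fragment interval exceeded the background count at 5 of 39 promoters in wild-type 1, 5 in wild-type 2, 14 in ApcMin/+ 1 and 22 in ApcMin/+ 2, against 52.6%, 55.4%, 60.2% and 66.4% of all promoters. One fragment adds a signal of 0.349 to a window in wild-type 1 and 0.0914 in ApcMin/+ 2. The signal needed to pass therefore differs between libraries, and the 4 counts are not directly comparable. Hoxb13, the last gene of its cluster and known from hindgut, tail and prostate, was the single Hox promoter above background in all 4 libraries (1.39, 1.27, 0.814 and 0.779). Both wild-type libraries were above both ApcMin/+ libraries there. A further 2, Hoxa7, a thoracic gene, among them, were above it in 3 libraries. Hoxa7 had 0.646, 1.04, 0.936 and 0.962, with no separation. Another 10 Hox promoters were above background in 2 libraries, 16 in 1 and 10 in none. These counts by number of libraries were not set against all promoters. Hoxb13 and Hoxa7, like Hoxa5, Hoxb4, Hoxb8, Hoxd3 and Hoxd4, were singled out after their values were seen.

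The promoters kept little of their order between most libraries. Spearman's rho over the 39 was 0.08 between the wild-type libraries, 0.05 between the ApcMin/+ libraries and from 0.06 to 0.45 between genotypes. The 0.45 was between wild-type 2 and ApcMin/+ 2, the 2 deepest libraries. Over the 9930 promoters above 2 rho was from 0.73 to 0.82 for the same pairs. The 39 windows held the equivalent of 81.9, 187, 216 and 321 fragments in all, with a median of 2.0, 4.0, 3.01 and 8.52 per window, which limits how well any order can be read.

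No order along the body axis was shared by the libraries. The mean signal of paralogues 1 to 8 (23 promoters) was 0.637, 0.466, 0.990 and 0.712, and that of paralogues 9 to 13 (16 promoters) was 0.872, 0.553, 0.401 and 0.808. On the log2(signal + 1) scale, posterior minus anterior was 0.18, 0.09, -0.38 and 0.09, positive in 3 libraries and negative in ApcMin/+ 1, with a mean of -0.01 ± 0.25 (SD, n = 4). Spearman's rho of signal with paralogue number was 0.17, 0.06, -0.26 and -0.07 (n = 39, overlapping windows included). Split more finely, paralogues 1 to 3 averaged 0.620 ± 0.165, paralogues 4 to 8 0.744 ± 0.280 and paralogues 9 to 13 0.658 ± 0.22 (SD over libraries, n = 4). The 3 classes overlapped.

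In ApcMin/+ 1, the library with the most signal in enriched regions, the strongest Hox promoters had low paralogue numbers. The promoters at 5 times its background or more numbered 7 (among them Hoxa4, Hoxa5, Hoxb4, Hoxb7, Hoxd3 and Hoxd4), with paralogue numbers from 1 to 7, against 53.8% of all promoters at that level in the same library. Hoxd3 and Hoxd4 have nearly the same window, since their annotated starts are 2 bp apart. Paralogues 9 to 13 averaged 2.0 times background there and paralogues 1 to 8 4.95 times. The median of the 7 was 11.2 times background in ApcMin/+ 1 and 2.47, 1.96 and 2.67 times in wild-type 1, wild-type 2 and ApcMin/+ 2, while the median of the other 32 in those 3 libraries was 2.47, 1.29 and 2.26 times. The pattern was not the same in every cluster. In ApcMin/+ 1, paralogues 1 to 3 of Hoxb averaged 1.73 times background, paralogues 4 to 8 6.80 times and its 2 posterior genes 4.06 times. The Hoxc genes up to number 8 averaged 1.31 times against 1.35 for its posterior genes, and no Hoxc promoter was among the 7. The 7 were picked on ApcMin/+ 1, so their level in that library is a description.

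Across the whole clusters, from the first to the last Hox gene with 10000 bp added on each side, the mean signal in 100 bp bins was 0.479, 0.471, 0.441 and 0.572, and the genome-wide mean was from 0.366 to 0.367. Of the 5721 bins, 3.25% reached 5 times the genome-wide mean, against 2.34% of all bins of the genome. Bins in promoter windows had 0.713, 0.510, 0.75 and 0.754, those in gene bodies 0.477, 0.473, 0.426 and 0.609, and those between genes 0.409, 0.457, 0.36 and 0.481. Pooled over the 4 clusters, the promoters were the highest class in every library, by a small margin in wild-type 2. Single clusters differed. Hoxc promoters were the lowest class in ApcMin/+ 1 (0.297 against 0.341 in gene bodies and 0.355 between genes) and below the bins between genes in wild-type 2 (0.515 against 0.530), and Hoxb gene bodies exceeded the promoters in ApcMin/+ 2 (0.704 against 0.641). The log2 ratio of ApcMin/+ to wild type over the clusters was 0.09, with no order of the libraries by genotype.

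The strongest place in the clusters was not a gene start itself. At chr6:52192001-52192400, centred at position -447 relative to the Hoxa4 start and inside the annotated extent of Hoxa3 and of the antisense gene Hoxaas3, the signal was 5.23, 3.21, 13.4 and 2.89. This 400 bp region had the highest mean of the 25 enriched regions in the clusters, with ApcMin/+ 1 the highest library. It held the equivalent of 2.99, 6.13, 19.8 and 6.31 fragments. The region was called and picked on these same tracks, so its level is a description. At chr6:52203401-52203900, centred 937 bp downstream of the Hoxa5 start, it was 2.42, 1.08, 9.5 and 1.49. At chr11:96318401-96318800, centred 333 bp downstream of the Hoxb4 start, it was 0, 0.603, 8.14 and 1.68. The longest region, chr6:52199801-52201400 (1600 bp), lay between Hoxa4 and Hoxa5 and had 0.805, 0.392, 3.66 and 0.899. CUT&RUN tracks carry no strand, so signal in these regions cannot be assigned to 1 of the overlapping genes. In all, 25 enriched regions lay in the clusters, 12 of them in a Hox promoter window. That was 43.7 regions per 1000 kb, against 20.5 per 1000 kb over the genome. Wild-type 1 was the highest library in 16 of the 25 and ApcMin/+ 1 in 8, counts not set against those of the genome. The 25 held from 5.73 to 35.3 fragments over the 4 libraries. They were called on the plain average of the tracks, in which a fragment of the shallow wild-type 1 weighs most. A single fragment in a promoter window adds 0.349 in wild-type 1, 0.104 in wild-type 2, 0.135 in ApcMin/+ 1 and 0.0914 in ApcMin/+ 2.

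**Figure D2:**
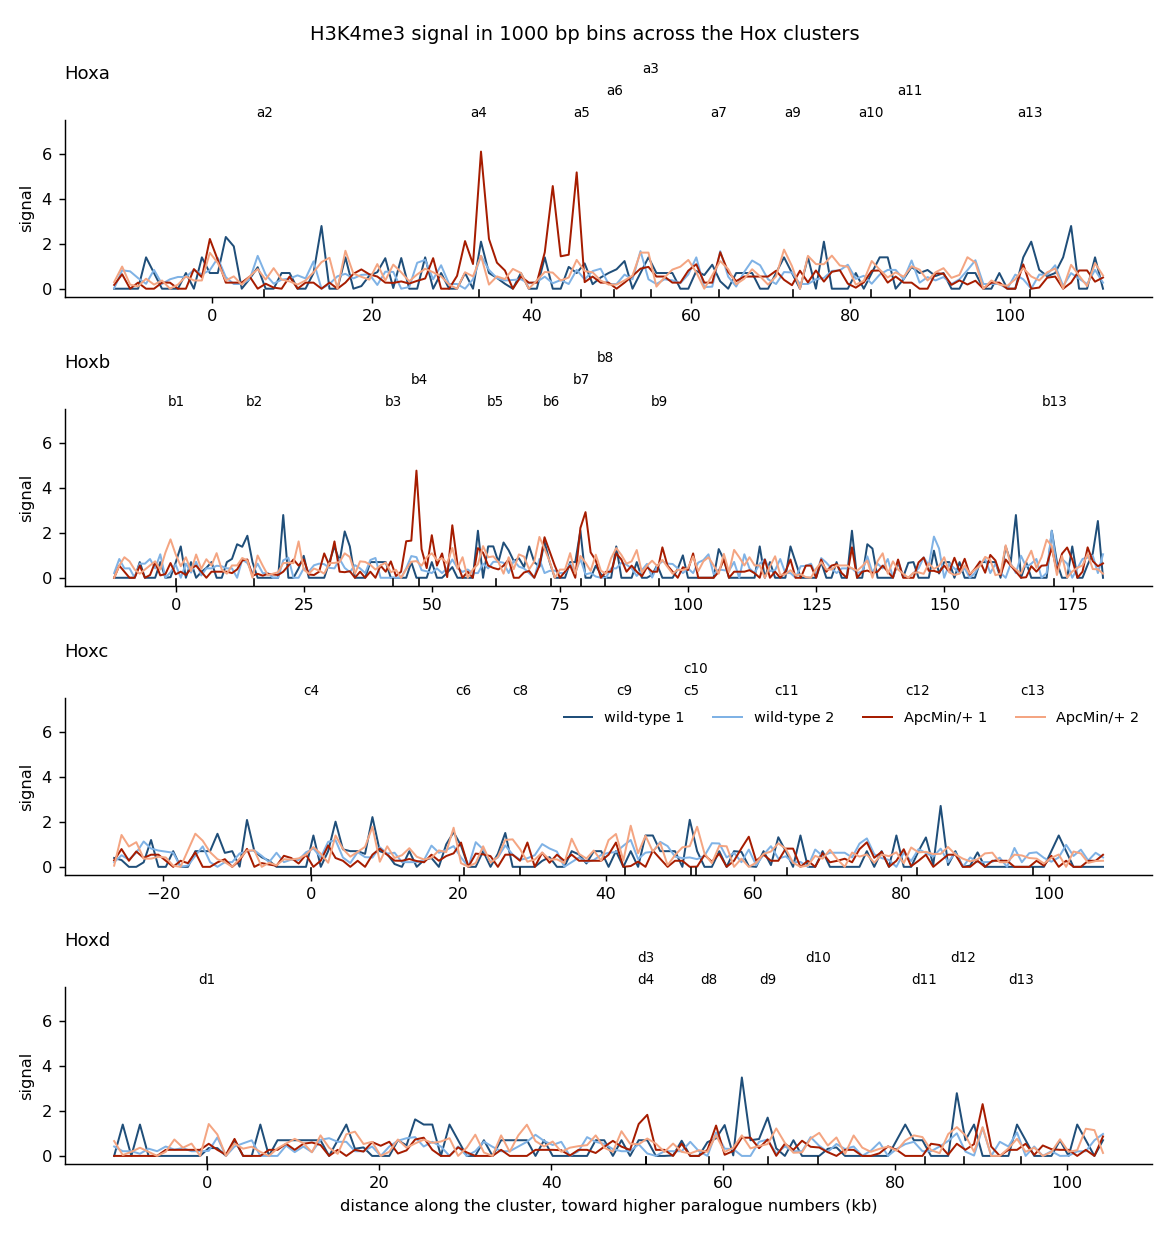
Mean H3K4me3 signal in 1000 bp bins across each Hox cluster in the 4 libraries, by distance along the cluster in kb, with ticks and names at the gene starts drawn. The tallest bins lie at a4, a5 and b4 and between a4 and a5, all in ApcMin/+ 1, and no bin of the Hoxc cluster exceeds 2.71.

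Only 2 of the 39 Hox starts, that of Hoxa7 among them, lay inside an enriched region (5 times the genome-wide mean in the average of the 4 tracks), or 5.13%, against 49.8% of all protein-coding starts. The region at Hoxa7 was 500 bp long, and the median over all starts in a region was 1900 bp. At 10 times the mean it was 0 of 39 against 39.9%. From the wild-type libraries alone 9 Hox starts lay in a region (among them Hoxa3, Hoxa5, Hoxa13, Hoxb7, Hoxb13, Hoxc5, Hoxd12 and Hoxd13), against 51.4% of all starts. From the ApcMin/+ libraries alone 7 did (among them Hoxa5, Hoxa7, Hoxb4, Hoxb7, Hoxd3 and Hoxd4), against 50.8% of all starts. Averaged about the starts, the Hox signal within 1000 bp was 1.89, 1.06, 1.54 and 1.40 times that beyond 2000 bp (up to 3000 bp). Over all protein-coding promoters the ratio was 4.03, 3.21, 6.90 and 3.52. The promoters above 2, picked on this same signal, had 6.21, 4.82, 9.18 and 5.07.

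**Figure D3:**
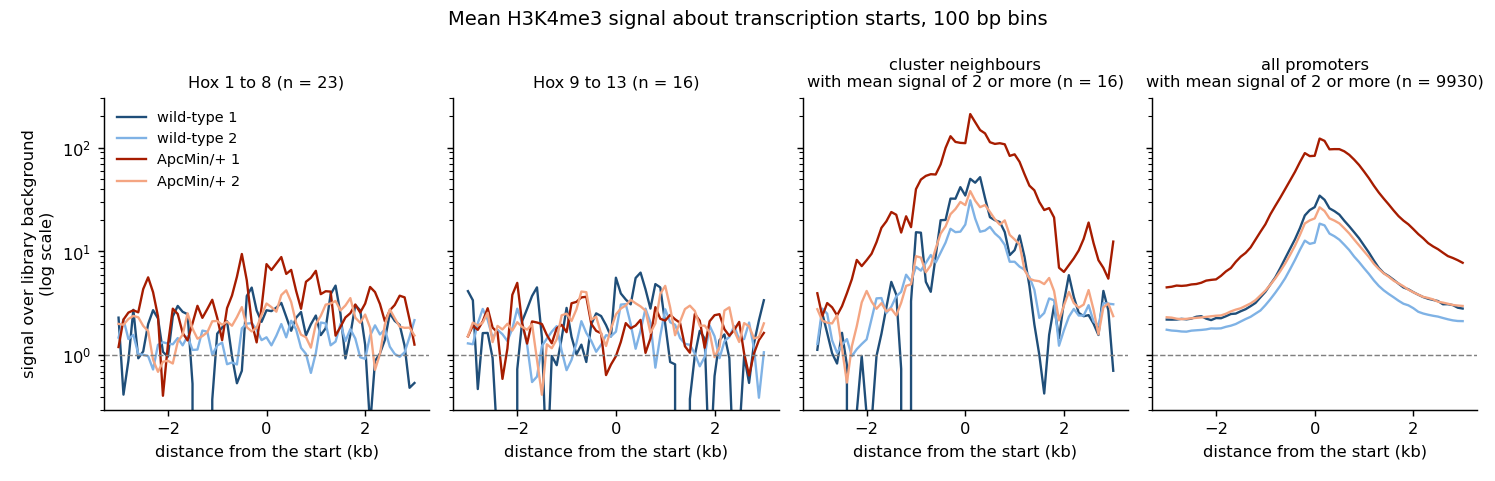
Mean H3K4me3 signal in 100 bp bins about transcription starts, as a multiple of each library's background on a log axis, for Hox paralogues 1 to 8 (n = 23), Hox paralogues 9 to 13 (n = 16), the cluster neighbours above 2 (n = 16) and all promoters above 2 (n = 9930). The Hox profiles stay below 10 times background, and lines that leave the lower edge run to bins under 0.3 times background, some at 0.

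The low Hox signal was not matched by a low CpG content. The observed over expected CpG ratio within 1000 bp of the start had a median of 0.591 over the Hox promoters (0.173 to 0.886), against 0.474 over all promoters. Of the promoters with a ratio of at least 0.6, 79.3% had a mean signal of 2 or more, whereas none of the 19 Hox promoters with such a ratio did. Hoxa5 had the highest ratio (0.886), followed by Hoxa4 (0.867) and Hoxa13 (0.859), the last with a mean signal of 0.591. Over the 39, Spearman's rho of CpG ratio with mean signal was 0.26, and from 0.11 to 0.21 in single libraries. The sequence TTTATG, a core bound by caudal-type homeodomain proteins, stood on either strand within 250 bases upstream of 11 Hox promoters (28.2%) and of 9.63% of all promoters. Hoxd3 and Hoxd4 have nearly the same upstream bases, so 1 site is counted for both. TGATNNAT, a site of the PBX-HOX type, stood in 8 (20.5%) and in 6.48% of all. A match in these letters is no evidence of binding.

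**Figure D4:**
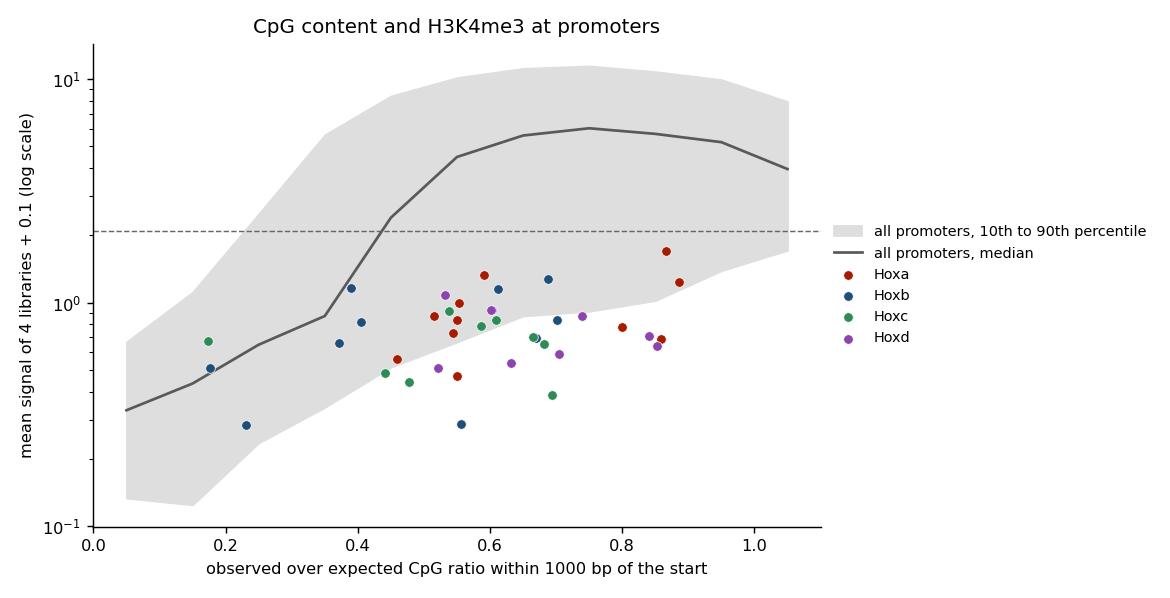
Mean H3K4me3 signal of the 4 libraries plus 0.1 (log axis) against the observed over expected CpG ratio of each promoter, with the median and the 10th to 90th percentile of all promoters in bins of 0.1 and each Hox promoter as a point. Every Hox promoter with a ratio above 0.4 lies under the median of all promoters of its ratio.

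The genotypes were compared with limma on log2(signal + 1). No Hox promoter entered at a mean signal of 2, where 0 of 9930 promoters were called (0%, and 132 at an unadjusted p under 0.05). To let all 39 enter, the level was lowered to 0.1 after the data were seen, and then 0 of 39 were called against 0 of 20578 (0%), and 0 of 39 against 10 (0.0486%) with each library centred on the median of its promoters above 2, a set with no Hox member, with 1 Hox promoter and 608 promoters at an unadjusted p under 0.05 before centring. That promoter was Hoxb4, a gene also known from blood stem cells, with 0, 0.634, 2.94 and 0.640. Both ApcMin/+ values exceeded both wild-type values, the second narrowly (0.640 against 0.634). The log2 difference was 0.99 ± 0.37 (SE; limma, adjusted p = 0.823), 0.79 once libraries were centred on the median of all promoters and 0.14 once they were centred on the median of those above 2. Hoxa4 had a log2 difference of 0.62 ± 0.47 (SE; limma, adjusted p = 0.823).

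The median log2 difference, ApcMin/+ minus wild type, was 0.09 over the 39 Hox promoters, 0.35 over all promoters and 0.85 over those above 2. ApcMin/+ had the higher mean at 21 Hox promoters and the lower at 18. Both ApcMin/+ values exceeded both wild-type values at 8 (among them Hoxa5, Hoxb3, Hoxb4, Hoxb8, Hoxd1, Hoxd3 and Hoxd4), or 20.5% against 26.0% of all promoters, and below them at 4 (Hoxa6, Hoxb13, Hoxc4 and Hoxd13), or 10.3% against 7.17%. These shares were near those of all promoters. Centring each library on the median of all its promoters lowered every difference by 0.20 and gave a median Hox difference of -0.11. Centring on the median of the promoters above 2 lowered them by 0.85 and gave -0.77, so the sign depends on the scaling. Without ApcMin/+ 1 the median Hox difference was 0.13 on the deposited scale. Without ApcMin/+ 2, Hoxa4 (log2 difference 1.33, adjusted p = 0.032) and Hoxb4 (1.63, adjusted p = 0.0092) were called higher by limma, but so were 24.0% of all promoters (0.0632% were called lower), and ApcMin/+ 1 then stood alone and was assumed to vary like the wild-type libraries. With centring on the median of all promoters added, the same 2 were called higher (5.13% of the Hox promoters), against 37.8% of all promoters (36.6% higher and 1.27% lower). With centring on the median of the promoters above 2, 20 Hox promoters (51.3%) were called lower, against 31.5% of all promoters lower and 0.418% higher. That constant comes from the stronger promoters and is subtracted from weak and strong ones alike.

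Most genes around the clusters were marked more strongly, though not most of the nearest ones. The genes listed lay from 8753 bp (Evx2) to 910371 bp (Nfe2l2) from a cluster. Of 24 neighbours (the 3 nearest protein-coding genes on each side of each cluster, Evx1 and Evx2 among them), 16 had a mean signal of 2 or more, with a median of 6.82 over the list. Hnrnpa1, an RNA-binding protein gene 203580 bp from the Hoxc cluster, had 11.7, 6.09, 34.5 and 7.42, and Cbx5, a heterochromatin protein gene, had 11, 5.98, 31.6 and 6.79. The lowest were Calcoco2 (0.697, 0.313, 0.149 and 0.457) and Smug1 (0, 0.425, 0.578 and 0.991). Evx1 and Evx2, homeobox genes at the posterior ends of Hoxa and Hoxd, had mean signals of 0.699 and 0.564, within the Hox range. Of the other genes nearest to a cluster on either side, Ttll6 (0.596), Skap1 (0.871) and Smug1 (0.498) also lay within that range. Skap2 (9.31), Calcoco1 (6.69) and Mtx2 (4.90) lay above it. Of 43 non-coding genes inside the clusters, 8 started within 1000 bp of a Hox start.

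Several partners and regulators of Hox genes lay above the Hox range, and others lay within it. Among the Hox cofactors, TALE homeodomain proteins that bind DNA with Hox proteins, 6 of 9 reached a mean signal of 2, with a median of 2.36. Pknox1 was among the highest (2.44, 2.46, 8.34 and 2.51), and Meis1 (0, 1.25, 2.50 and 1.37) and Pknox2 (1.23, 0.730, 0.675 and 1.33) were lowest. Of the 6 ParaHox and caudal genes, Cdx2 (5.62, 6.08, 25.8 and 6.97) and Cdx1 (4.53, 2.90, 22.5 and 3.88), which set intestinal identity, reached 2, while Gsx2 (0.584, 0.648, 0.239 and 1.17) and Cdx4 (0.349, 0.731, 0.135 and 0.0913) did not. Of 10 other anterior-posterior markers 5 reached 2, led by Gata5 (14.4, 7.99, 36.8 and 9.48) and Gata6 (10.4, 4.90, 32.3 and 6.88). The lowest were Sox2, a foregut gene (0.697, 0.497, 0.270 and 0.456), and Slc10a2, the ileal bile acid transporter (0.348, 0.209, 0.617 and 0.117). Of the genes in these lists that reached 2, none was called between genotypes by limma (lowest adjusted p = 0.683).

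Of 12 enterocyte markers, which define the labelled tissue, 11 (all but Sis) reached a mean signal of 2, with a median of 8.59 and a summed signal of 76.0, 44.6, 197 and 55.0. None of 10 mesenchyme and smooth muscle markers reached 2 (summed 4.88 and 6.22 against 7.55 and 8.74), nor did any of 10 blood cell markers (7.10 and 6.35 against 11.3 and 7.62), 5 endothelial markers (3.46 and 3.55 against 3.64 and 3.38) or 5 nerve and glia markers (3.28 and 3.52 against 4.88 and 3.41). Within these lists Col1a1, Col3a1, Pdgfra, Myh11, Ptprc and Cdh5 were among the markers listed at 0 in wild-type 1. The summed Hox signal was 28.6 and 19.6 against 29.2 and 29.3, and the mesenchyme and the blood cell sums were each higher in both ApcMin/+ mice than in both wild-type mice. Their part in the Hox values was not tested. The median Hox level (0.630) lay between that of 6 genes not expected in intestine (0.462) and that of 66 homeobox and paired-box genes outside the clusters (0.691, of which 2 reached 2), and above that of 1093 olfactory receptor genes (0.204). The homeobox and olfactory receptor lists were chosen after values were seen.

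**Figure D5:**
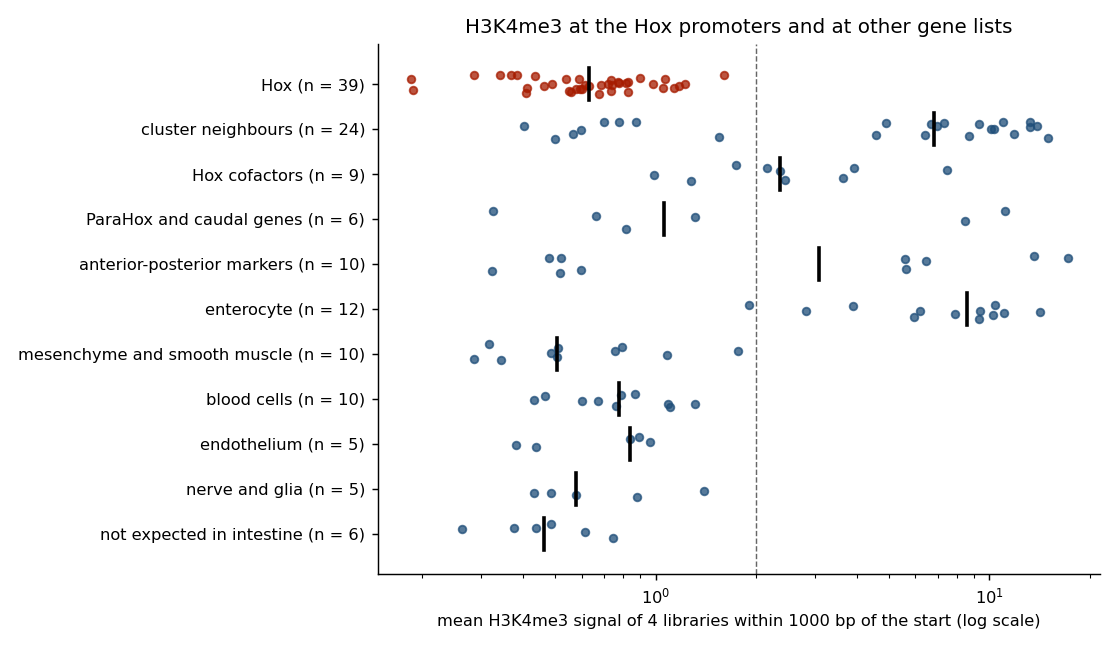
Mean H3K4me3 signal of the 4 libraries at each promoter (points, log axis) in the Hox genes and in 10 other lists, with the median of each list as a bar and the signal of 2 as a dashed line. No Hox promoter reaches the line, and 11 of 12 enterocyte markers do.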

How the data were processed

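H3K4me3 CUT&RUN libraries of villus cells from 2 wild-type and 2 ApcMin/+ mice were used (n = 2 per genotype). The authors trimmed the reads, aligned them to mm10 with Bowtie2, removed duplicates with Picard and alignments of mapping quality under 10, kept fragments of 150 to 500 bp and deposited the HOMER coverage signal per library, scaled to 10000000 tags, with no control subtracted and no replicates pooled. From these tracks the mean signal within 1000 bp of each GENCODE M21 gene start was computed for 21938 protein-coding genes, and in 100 bp bins. Fragments per window were recovered by dividing the window signal by the signal per tag, the summed signal of a track over its stated tags. Enriched regions were runs of bins at 5 times the genome-wide mean of the averaged tracks, joined over gaps of up to 500 bp and at least 300 bp long, and background was the signal outside them and over 5000 bp from any gene start. Genotypes were compared with limma 3.58.1 (trend; R 4.3.3) on log2(signal + 1) at promoters averaging 2 or more, with Benjamini-Hochberg adjustment over all promoters tested and a threshold of 0.05. The step was tested on simulated data in which only promoters averaging 2 or more were changed. That test therefore does not cover a change at a Hox promoter. Fold changes on this scale understate changes of low promoters. Values per library were to be given for the highest and lowest promoter of each cluster, for promoters called, and for the 3 largest differences in each direction among members above 2, of which there were none. For other lists the 2 highest and 2 lowest were named. The nearest neighbour on each side of each cluster was added after values were seen. The members and lists were chosen with earlier results of these data known. The p-values set each difference against the spread between libraries of the same genotype, 2 per genotype. In limma that spread was drawn toward a trend over all promoters tested, so it is not that of the promoter alone. Alternatives were other scalings (among them centring on the median of all promoters or of those above 2), windows, pseudocounts (0.1 and 5), filters, a replicate block, RefSeq starts, and leaving out each library. Some genes and sequences are not reported here.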

Additional observations from a re-analysis of the deposited data

How the results depend on the processing

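Low counts, 0 to 28 fragments per promoter window, limited how precisely Hox signal could be read. The count of Hox promoters called stayed at 0 under 35 of 38 alternatives. At a mean signal of at least 0.1 without ApcMin/+ 2 it was 2, again 2 when each library was also centred on the median of all promoters, and 20 (all lower) when it was centred on the median of the promoters above 2, none of them a Hox promoter. The lower level of 0.1, its combinations, centring on all promoters and the RefSeq starts were added after the data were seen. At the level of 2 no member was tested, so the 0 there says nothing about stability, and the fit with no filter held promoters of 0 variance and is void.

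The median log2 difference of 0.09 became -0.11 with centring on the median of all promoters, and then -0.20 (without wild-type 1), -0.12 (without wild-type 2), -0.0044 (without ApcMin/+ 1) and -0.36 (without ApcMin/+ 2). With centring on the median of the promoters above 2 it was -0.77, and with a library left out -0.93 (without wild-type 1), -0.69 (without wild-type 2), 0.0041 (without ApcMin/+ 1) and -1.67 (without ApcMin/+ 2). Leaving out 1 library with no centring gave -0.091 (without ApcMin/+ 2) to 0.14, and the other scalings, windows, pseudocounts and starts gave -0.01 to 0.19. Posterior minus anterior stayed within 1 SD of its value in all 11 alternatives (-0.12 to 0.12). The log2 ratio over the clusters, 0.09, was 0.38 when scaled to background and 0.38 as a median over 1000 bp bins, and ranged from -0.11 (without ApcMin/+ 2) to 0.27 (without ApcMin/+ 1). The cause was not tested. Of the Hox starts, 0 lay in a region at 10 times the mean, 9 with the wild-type libraries alone, 7 with the ApcMin/+ libraries alone, and 2 to 4 with a library left out. The shares of all protein-coding starts were 39.9%, 51.4%, 50.8% and 49.0% to 52.2% in the same order.

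Replicate numbers are shared between genotypes by label only (2 pairs, and a correlation of 0.196 between the deviations of same-numbered libraries from their genotype means). With the replicate block at a mean signal of at least 0.1, 0 of 39 Hox promoters and 0 of 20578 promoters in all were called. At the level of 2 no Hox promoter was tested, and 1 of 9930 promoters was called.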
